A study of Mus musculus with 30 samples.

Results

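The Dlk1-Dio3 region of mouse chromosome 12 carries one of the largest groups of microRNA genes known in mammals, and 49 of its precursors make up the set described here. A precursor was included where its symbol in the 5 deposited organ tables is one of these 49 names, chosen by position in the cluster. The 49 are among 2194 named features in each table, of which 1189 carry microRNA symbols. They fall into 13 precursors from Mir770 to Mir370, called the Mir127 side, and 36 from Mir379 to Mir410, called the Mir379/410 side. The mice were 6 males aged 4 months, 3 labelled Ftsj1_DF (deficient for Ftsj1) and 3 labelled WT, with no treatment in either group. Small RNA was sequenced from whole brain, heart, spleen, liver and kidney. Each mouse gave all 5 organs, so there are 30 libraries, 6 per organ. Of the 6 mice, 4 are brothers of one another and the other 2 are brothers, and both sets of brothers hold both genotypes. The labels place 1 WT library each of heart, kidney and liver in batch 2 and all other libraries in batch 1, and do not say what a batch is. How the Ftsj1 allele was made is not given in the sources used here, and the Ftsj1 transcript was not analysed here.

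In this imprinted region the microRNA genes are expressed from the chromosome inherited from the mother, within long noncoding transcripts named Meg3, Rian and Mirg, while the protein-coding genes Dlk1, Rtl1 and Dio3 are expressed from the paternal one. Mir431, Mir433, Mir127, Mir434 and Mir136 lie antisense to Rtl1, and the Mir379/410 group lies further along, in and near Mirg. The cluster is known for its expression in embryo, placenta and brain, where miR-134 restrains dendritic spine growth and the Mir379/410 group responds to neuronal activity. FTSJ1 is an X-linked methyltransferase that places 2′-O-methyl groups in the anticodon loop of transfer RNAs, and its loss in people causes intellectual disability.

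Each precursor can give a microRNA from either arm, and the tables count precursors, not arms. The RefSeq tables (GRCm38.p6) matched all 49 members and list 94 mature arms of 18 to 26 bases, with both arms for 45 members. Mature sequences of the most abundant members are shown first, 5′ to 3′, with the seed (bases 2 to 8, which pairs with target transcripts) in capitals. Mir434, Mir127 and Mir433 led the Mir127 side in every organ; Mir541, Mir382 and Mir369 were among the most abundant of the Mir379/410 side.
miR-434-3p: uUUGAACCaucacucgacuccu
miR-434-5p: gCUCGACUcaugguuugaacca
miR-127-3p: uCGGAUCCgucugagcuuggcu
miR-127-5p: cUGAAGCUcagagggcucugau
miR-433-3p: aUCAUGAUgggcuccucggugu
miR-541-5p: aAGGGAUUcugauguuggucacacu
miR-382-5p: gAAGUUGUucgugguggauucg
miR-369-3p: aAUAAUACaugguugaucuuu
miR-487b-5p: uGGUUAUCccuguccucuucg

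The 94 arms carry 87 different seeds, and 7 seeds are shared, each by arms of 2 members. The 14 arms with a shared seed are shown in pairs, and the levels given below are those of their whole precursors. The pair of miR-370-5p and miR-1193-3p is the one that joins a member of the Mir127 side to one of the Mir379/410 side.
miR-370-5p: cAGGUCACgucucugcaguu
miR-1193-3p: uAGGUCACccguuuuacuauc
miR-379-5p: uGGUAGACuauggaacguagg
miR-1193-5p: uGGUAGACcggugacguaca
miR-379-3p: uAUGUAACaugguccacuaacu
miR-411-3p: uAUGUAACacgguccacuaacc
miR-299a-3p: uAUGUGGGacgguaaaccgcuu
miR-299b-3p: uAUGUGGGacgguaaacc
miR-1197-5p: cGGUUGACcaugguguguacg
miR-758-5p: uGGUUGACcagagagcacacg
miR-494-5p: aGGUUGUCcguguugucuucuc
miR-410-5p: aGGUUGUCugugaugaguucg
miR-376b-5p: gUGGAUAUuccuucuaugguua
miR-376c-5p: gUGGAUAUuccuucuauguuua

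Mir379 and Mir411 stand next to each other and were the most abundant pair of the cluster outside brain. Their 3p arms are the same at 20 of 22 positions, counted from the 5′ end, and differ by U10C and U22C (miR-379-3p base first), outside the seed. Their 5p arms are the same at 14 of 21 positions, and the first of their 7 differences, G2A, falls in the seed, so miR-411-5p has a seed of its own in the cluster.
miR-411-5p: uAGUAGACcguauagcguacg
The 5p arms of Mir376b and Mir376c are the same at 21 of 22 positions and differ by G19U. How the authors assigned reads that match several precursors is not given in the sources used here, so the split of reads between such near-identical members is uncertain.

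Levels are given as ppm of the summed deposited means of all named features of an organ. The organ totals were 16119031 normalized counts for brain, 21787131 for kidney, 18941389 for liver, 10737327.5 for spleen and 8511372 for heart. The 95% intervals of a level come from the deposited standard error. They approximate the uncertainty of the mean over 6 libraries and are not the range of single libraries. A read here is a whole mature microRNA, so no value was divided by length, and since small RNA kits capture some sequences better than others, levels of different members compare read shares, not molecules. Tissue markers stood in the labelled organs: the neuron list (7 of 8 matched precursors above 0, Mir9, Mir124a and Mir128 genes) made up 20.99% of brain and 0.0402% to 0.213% of the other organs. Heart muscle microRNAs made up 11.6% of heart and at most 0.0332% elsewhere, and Mir122, the hepatocyte microRNA, 26.2% of liver and at most 0.0588% elsewhere. The spleen leukocyte list made up 1.47% of spleen and at most 0.184% elsewhere, while the kidney list made up 13.3% of kidney and also 8.24% of liver. Pancreas microRNAs were highest in spleen, at 0.322%.

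Of the 49 members, 43 had a mean above 0 in brain, 41 in liver and 40 each in heart, kidney and spleen, and 39 were above 0 in every organ. A mean of at least 10 normalized counts was reached by 41 members in brain, 36 in heart, 33 in kidney, 31 in spleen and 29 in liver. Mir337 and Mir544 were above 0 in brain alone, at means of 5.23 and 31.8 normalized counts. Mir136, Mir299b, Mir380, Mir376a, Mir539 and Mir409 were listed at 0 in all 5 organs. Each of these 6 lies whole inside another small RNA precursor on the opposite strand in the GENCODE M21 annotation: Mir136 in Mir3071, Mir299b in Mir299a, Mir380 in Gm25750, Mir376a in Gm25252, Mir539 in Gm44322 and Mir409 in Gm24321. Across all microRNA-named precursors in the tables, 34 of 34 that are covered whole in this way were listed at 0 in every organ, against 1 of 21 that overlap another precursor in part and 98 of 1119 (8.76%) without overlap. Among the 28 such precursors outside the cluster, 28 were also at 0. The strand setting of the counting is not given in the sources used here, and reads of overlapping precursors on opposite strands may not be told apart. A listed 0 for these 6 members therefore cannot be read as absence of the microRNA. Mir337 shares 61 of its 97 bases with Mir3544 and Mir299a 49 of its 63 with Mir299b, on the opposite strand. Counts of Mir337 and Mir299a may be incomplete too, so Mir337 cannot be read as absent outside brain.

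Brain held by far the most reads of the cluster. Its 49 members summed to 4.93% of the brain total, 0.115% of heart, 0.0521% of spleen, 0.0384% of liver and 0.0327% of kidney. Brain stood 42.8-fold above heart, 94.6-fold above spleen, 128-fold above liver and 151-fold above kidney. The tables of the organs were normalized separately, and the size of the step depends on how they are set on one scale. With the deposited means as they stand, brain was 81.1-fold above heart, 109-fold above liver, 112-fold above kidney and 142-fold above spleen. With a scaling by the median ratio of 326 features it was 28.4-fold above heart, 42.6-fold above liver, 66.7-fold above spleen and 83.2-fold above kidney. Heart came second under all 3, and the order of the other organs changed with the scaling. In whole organs, fewer cells that express a microRNA and less of it per cell cannot be told apart. All 41 members above 0 in more than 1 organ were highest in brain, under each of these 3 scalings. The fold of brain over the next organ ranged from 3.19 to 365 with a median of 41.7, and for 40 of the 41 the intervals of brain and the next organ did not overlap; the exception was Mir1197, at 0.361 ppm (95% interval 0.111 to 1.17) in brain and 0.113 ppm (95% interval 0.00768 to 1.67) in heart. Heart came second for 39 of the 41 members by share of the organ total, for 32 with the deposited means and for 35 with the median-ratio scaling. Mir154 came second in liver and Mir758 in spleen by share. Below brain, 95 of 120 neighbouring pairs in the order of organs had overlapping intervals. For single members the order among heart, spleen, liver and kidney is therefore mostly not resolved.

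**Figure D1:**
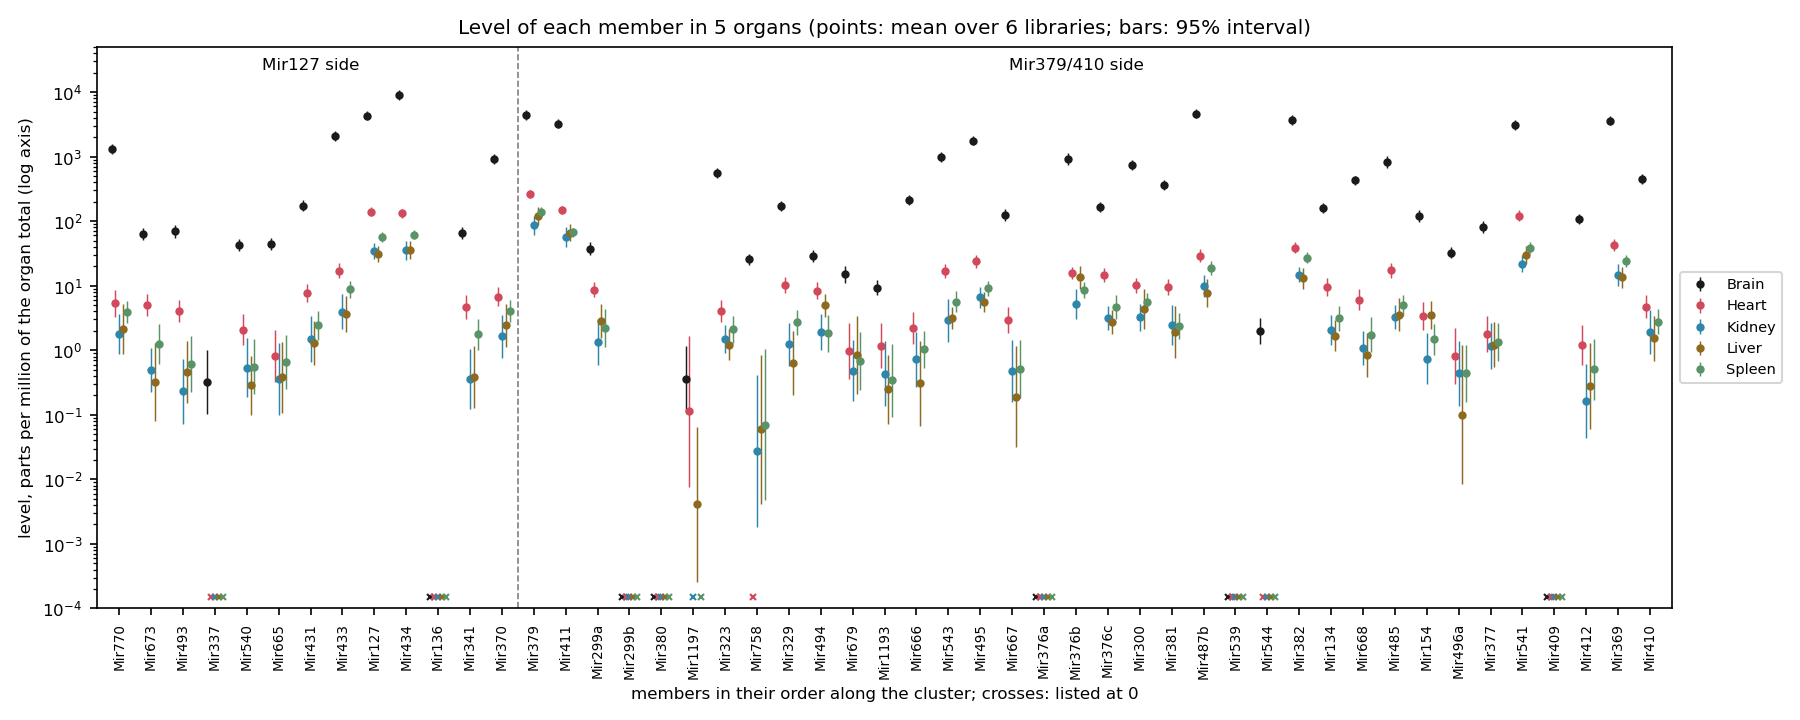
Level of each of the 49 members in ppm of the organ total (log axis), in their order along the cluster, with the Mir127 side left of the dashed line; points are means over 6 libraries, bars 95% intervals, and crosses mark members listed at 0. The brain points lie above those of the other 4 organs for every member measured in more than 1 organ, and 6 members are at 0 throughout.

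On the Mir127 side, the group around Rtl1 and the members upstream of it, 3 precursors carried most of the reads. Mir434 was the most abundant member of the whole cluster in brain, at 9030.0 ppm (95% interval 7677 to 10622), followed by Mir127 at 4307 ppm (95% interval 3632 to 5107) and Mir433 at 2057 ppm (95% interval 1718 to 2464). Both of the leading precursors are antisense to Rtl1. In heart Mir127 reached 141 ppm (95% interval 121 to 165) and Mir434 132 ppm (95% interval 113 to 154), with overlapping intervals, and Mir433 17.1 ppm (95% interval 13.1 to 22.4). Brain, by contrast, had Mir434 above Mir127 with intervals apart. In spleen Mir434 stood at 61.8 ppm, Mir127 at 56.3 ppm and Mir433 at 8.83 ppm. Kidney had 35.7 ppm of Mir434, 34.2 ppm of Mir127 and 3.94 ppm of Mir433, and liver 35.9, 31.3 and 3.64 ppm of the same members. Median levels over the members above 0 on this side were 122 ppm in brain, 5.30 in heart, 2.43 in spleen, 1.504 in kidney and 1.29 in liver.

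On the Mir379/410 side, Mir379 was among the 3 highest members in every organ, while the others at the top in brain differed from those elsewhere. In brain Mir487b led with 4629.7 ppm (95% interval 3909.6 to 5482), with Mir379 at 4489.8 ppm (95% interval 3752 to 5373) and Mir382 at 3714 ppm (95% interval 3099 to 4452), whose intervals overlap. Mir369, Mir411 and Mir541 followed at 3631, 3255 and 3129 ppm. In each of the other organs Mir379, Mir411 and Mir541 were the leading members. Heart had 268 ppm (95% interval 232 to 309) of Mir379, 149 ppm (95% interval 128 to 174) of Mir411 and 122 ppm (95% interval 101 to 147) of Mir541. Spleen had 138, 67.1 and 39.1 ppm of the 3, liver 119.9, 66.0 and 30.0 ppm, and kidney 86.0, 56.0 and 21.9 ppm. Mir487b, which led in brain, was at 29.0 ppm in heart, 18.9 in spleen, 9.86 in kidney and 7.84 in liver. Mir134, whose microRNA acts on dendritic spines, reached 160.2 ppm (95% interval 132 to 194) in brain and 9.53, 3.12, 2.04 and 1.69 ppm in heart, spleen, kidney and liver. Median levels over the members above 0 on this side were 215 ppm in brain, 9.53 in heart, 2.71 in spleen, 2.33 in liver and 1.92 in kidney.

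The Mir127 side gave 36.7% of the cluster sum in brain, 28.4% in heart, 27.3% in spleen, 24.7% in kidney and 20.4% in liver. These shares rest on a few abundant members: the 6 most abundant held 60.5% of the cluster sum in brain and 74.3% to 77.2% in the other organs. With the medians of the sides in place of their sums the share was 36.2% in brain, 35.8% in heart, 35.6% in liver, 43.9% in kidney and 47.3% in spleen. The lower share outside brain is thus seen in the sums. By medians heart and liver were close to brain, and kidney and spleen were higher. The ranking of members was alike between organs: over the 28 members with a mean of at least 10 in every organ, the rank correlation of the levels in brain with those in heart was 0.78, in kidney 0.824, in liver 0.71 and in spleen 0.895. Pairs among the other 4 organs gave 0.843 to 0.952. These are correlations across members, which share libraries and are not independent replicates.

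Among members that share a seed, one precursor mostly outweighed the other in brain, while outside brain several pairs had overlapping intervals. These levels count both arms of a precursor, so how many of the reads carry the shared seed is not known. Mir370 stood at 921 ppm in brain against 9.30 ppm of Mir1193, and at 6.79 against 1.18 ppm in heart. Mir379, which shares its other seed with Mir1193, exceeded it in every organ, at 119.9 against 0.247 ppm in liver, 86.0 against 0.433 in kidney and 138 against 0.341 in spleen. Mir379 and Mir411, with a common 3p seed, differed less. Mir379 stood 1.38-fold above Mir411 in brain, 1.54-fold in kidney, 1.80-fold in heart, 1.82-fold in liver and 2.06-fold in spleen. Their intervals overlapped in brain, kidney and liver and were apart in heart and spleen. Mir410 exceeded Mir494 in brain, at 451 ppm (95% interval 373 to 546) against 28.5 ppm (95% interval 23.1 to 35.3). In heart and liver the order was the other way: heart had 4.74 ppm (95% interval 3.13 to 7.17) of Mir410 against 8.35 ppm (95% interval 6.16 to 11.3) of Mir494, and liver 1.54 ppm (95% interval 0.684 to 3.45) against 4.99 ppm (95% interval 3.31 to 7.53), with overlapping intervals in both. The intervals overlapped in kidney (1.91 against 1.92 ppm) and in spleen (2.76 against 1.83 ppm) as well. Mir376b stood above Mir376c in brain, at 918 against 165 ppm, and in liver, at 13.4 ppm (95% interval 8.86 to 20.4) against 2.75 ppm (95% interval 1.77 to 4.25). In heart their levels, 15.7 and 14.7 ppm, had overlapping intervals, as did those in kidney (5.26 against 3.16 ppm) and in spleen (8.71 against 4.73 ppm). Mir758 and Mir1197 were low outside brain, at or below 0.113 ppm, and Mir299a reached 37.7 ppm in brain and 8.72 ppm in heart, while its partner Mir299b is one of the members listed at 0.

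Because the cluster is so much higher in brain, the levels elsewhere were set beside those of Mir124a, a microRNA known from neurons and encoded by 3 precursors. Ratios to brain in this paragraph are of the deposited means as they stand, and the order of organs in them can change with the scale. The 3 Mir124a precursors summed stood at 0.148% of the brain value in heart, 0.156% for kidney, 0.184% for liver and 0.194% for spleen. Each single copy lay between 0.127% and 0.2001%. By share of the organ total, each of the 3 copies was instead lowest in kidney. The most abundant copy, Mir124a-3, had 5660 ppm in brain and 6.75 ppm in kidney. Its share was 9.33 ppm for liver, 16.2 ppm for heart and 17.0 ppm for spleen. Over 213 features with a brain mean of at least 1000, the median organ-to-brain ratio was 15.1% for liver, 15.4% for heart, 18.9% for spleen and 41.97% for kidney, and the lowest 5% of features lay at or below 0.192%, 0.240%, 0.2201% and 0.230%. The means in heart, kidney and liver each include 1 library with at most 2 Mir124a reads, described below. Ratios and counts without those libraries were not computed. Of the cluster, 32 members had a brain mean of at least 1000. In heart 19 of them stood at 5 or more times the Mir124a ratio and Mir770 alone was under 2 times. In kidney 12 were at 5 or more times and 5 under 2 times: Mir770, Mir412, Mir370, Mir433 and Mir487b. In liver 8 were at 5 or more times and 9 under 2 times, and in spleen 8 and 11. Mir770, Mir433, Mir370, Mir487b and Mir412 were under 2 times in kidney, liver and spleen alike. Mir379, Mir411, Mir376c, Mir134 and Mir377 were at 5 or more times in all 4 organs. Expressed on the sums, the Mir124a ratio times the brain means equals 27.5% of the cluster sum in spleen, 20.1% in liver, 17.5% in kidney and 12.02% in heart. The same share was larger on the Mir127 side (37.04%, 36.1%, 25.9% and 15.5%) than on the Mir379/410 side (23.97%, 16.01%, 14.7% and 10.6%). These counts depend on the neuron marker chosen, as the Mir9 and Mir128 precursors, on the same neuron list, kept larger fractions of their brain level in most organs. The ratio to brain was 1.01% in heart, 0.612% in spleen, 0.508% in kidney and 0.297% in liver for the 2 Mir128 precursors summed, and 0.241%, 0.212%, 0.914% and 0.179% for the 2 Mir9 precursors above 0. With Mir128 in place of Mir124a, 0 of the 32 members stood at 5 or more times the ratio in heart and 0 in spleen, 2 in kidney (Mir376c and Mir379) and 6 in liver. With Mir9 the counts in the same order were 14, 7, 0 and 8. The ratio times the brain means then equals 81.8% of the cluster sum in heart, 86.8% in spleen, 56.7% in kidney and 32.4% in liver for Mir128, and 19.5%, 30.1%, 102% and 19.5% for Mir9. Both alternatives were added after the data were seen. What part reads of brain type have in the low levels of these members was not tested.

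**Figure D2:**
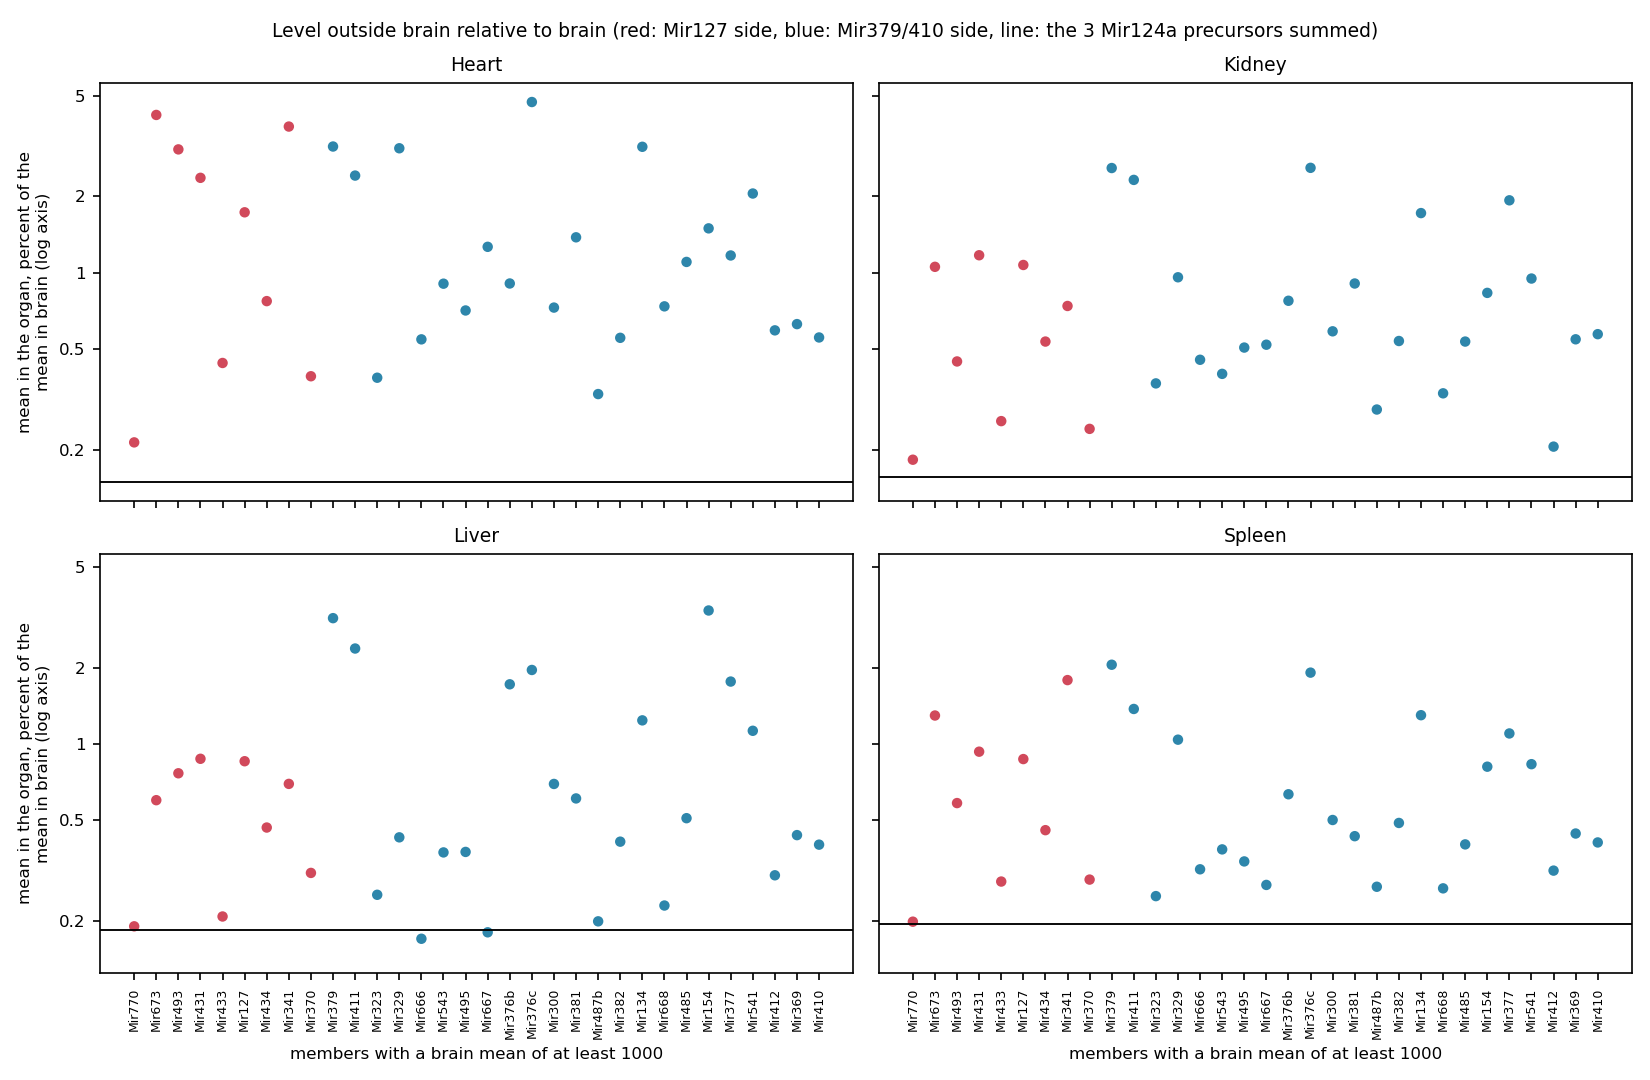
Deposited mean in heart, kidney, liver and spleen as a percentage of the mean in brain (log axis) for the 32 members with a brain mean of at least 1000, with the Mir127 side in red and the Mir379/410 side in blue; the line is the same ratio for the 3 Mir124a precursors summed. Mir379, Mir411, Mir376c and Mir134 lie far above the line in all 4 organs, while Mir770 lies close to it in kidney, liver and spleen.

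Values for single libraries were recovered from the deposited means, which keep 15 significant digits: one set of 6 whole read counts fitted the mean, the fold change and its standard error for 11 of 11 members tried in brain, 35 of 35 in heart, 38 of 38 in kidney and 37 of 39 each in liver and spleen. The most abundant members were too high for this and have no values per library. The recovery tells which 3 libraries raise the deposited fold change (the positive side) and which 3 lower it (the negative side), and not which side is Ftsj1_DF. The numbers 1 to 3 within a side only name libraries. In liver the sides also differed in depth: size factors ran from 0.4999 to 0.729 for the positive libraries and from 1.45 to 2.15 for the negative ones, without overlap.

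In heart, kidney and liver 1 library stood apart in the neuron marker. The 3 Mir124a precursors together had 2 reads in heart negative library 1, against 163 to 268 in the other 5 heart libraries. They had 0 reads in kidney negative library 2, against 168 to 430 in the others, and 0 in liver negative library 2, against 159 to 751. A count of 0 allows up to 3 reads. All 6 spleen libraries had 212 to 347. The files do not tie libraries to samples, so whether these are the libraries that the labels place in batch 2 was not tested.

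Most recovered members were low in the kidney library without Mir124a reads. Of the 31 recovered members with a mean of at least 10, 10 had 0 reads in kidney negative library 2, namely Mir154, Mir299a, Mir370, Mir377, Mir381, Mir410, Mir543, Mir666, Mir667 and Mir770. Mir543 reached 42.01 to 154 normalized counts in the other 5 kidney libraries, Mir381 34.8 to 111 and Mir770 30.5 to 60.8. Mir433 had 1.962 normalized counts there against 62.4 to 151, Mir487b 46.1 against 209.6 to 299.6, and Mir369 63.8 against 283 to 480.3. In all, 23 of the 31 lay below each of the other 5 libraries and the median member was at 23.6% of the median of those 5. Among 163 features of any kind with a mean of 10 to 100, 28.8% lay below the other 5 and the median was 116%. That range holds 23 of the 31 members, and the share of features at 0 reads in this library is not given here. Other members did not follow: Mir382 stood at 323 normalized counts against 243 to 418, Mir541 at 472 against 331 to 819 and Mir485 at 92.2 against 35.6 to 113. Mir127 lay just below the others, at 563 against 582 to 1205. Mir376c, at 115, and Mir540, at 48.1, lay above the other 5, which reached 92.3 and 13.4. Mir376b, whose 5p arm is the same as that of Mir376c but for G19U, was at 16.7 against 79.7 to 250.02.

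In liver negative library 2, 4 of 25 members had 0 reads (Mir329, Mir381, Mir679 and Mir770). In all, 12 lay below each of the other 5 and the median member was at 60.8% of their median. Among 154 features with a mean of 10 to 100, the range that holds 19 of the members, 22.1% lay below and the median was 115%. Mir370 had 1.30 normalized counts there against 14.4 to 130.03, and Mir433 6.51 against 34.3 to 128. Mir494, Mir323 and Mir431 lay above the other 5, Mir494 at 124.4 against 36.01 to 112. Heart negative library 1, with 2 Mir124a reads, was different: 0 of 31 members were at 0, 7 lay below the other 5, 7 above and the median member was at 105%. Among 174 features with a mean of 10 to 100, the range that holds 22 of the members, 26.4% lay below. Mir770 was at 8.76 normalized counts in it against 32.6 to 74.7, and Mir485 at 263 against 86.7 to 159. Mir770 was thus at its lowest of the 6 libraries in the one with few or no Mir124a reads, in heart, kidney and liver alike. The same held for Mir410 and Mir487b. Mir410 was at 17.9 normalized counts against 31.7 to 72.2 in heart, and at 2.61 against 10.2 to 68.2 in liver.

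**Figure D3:**
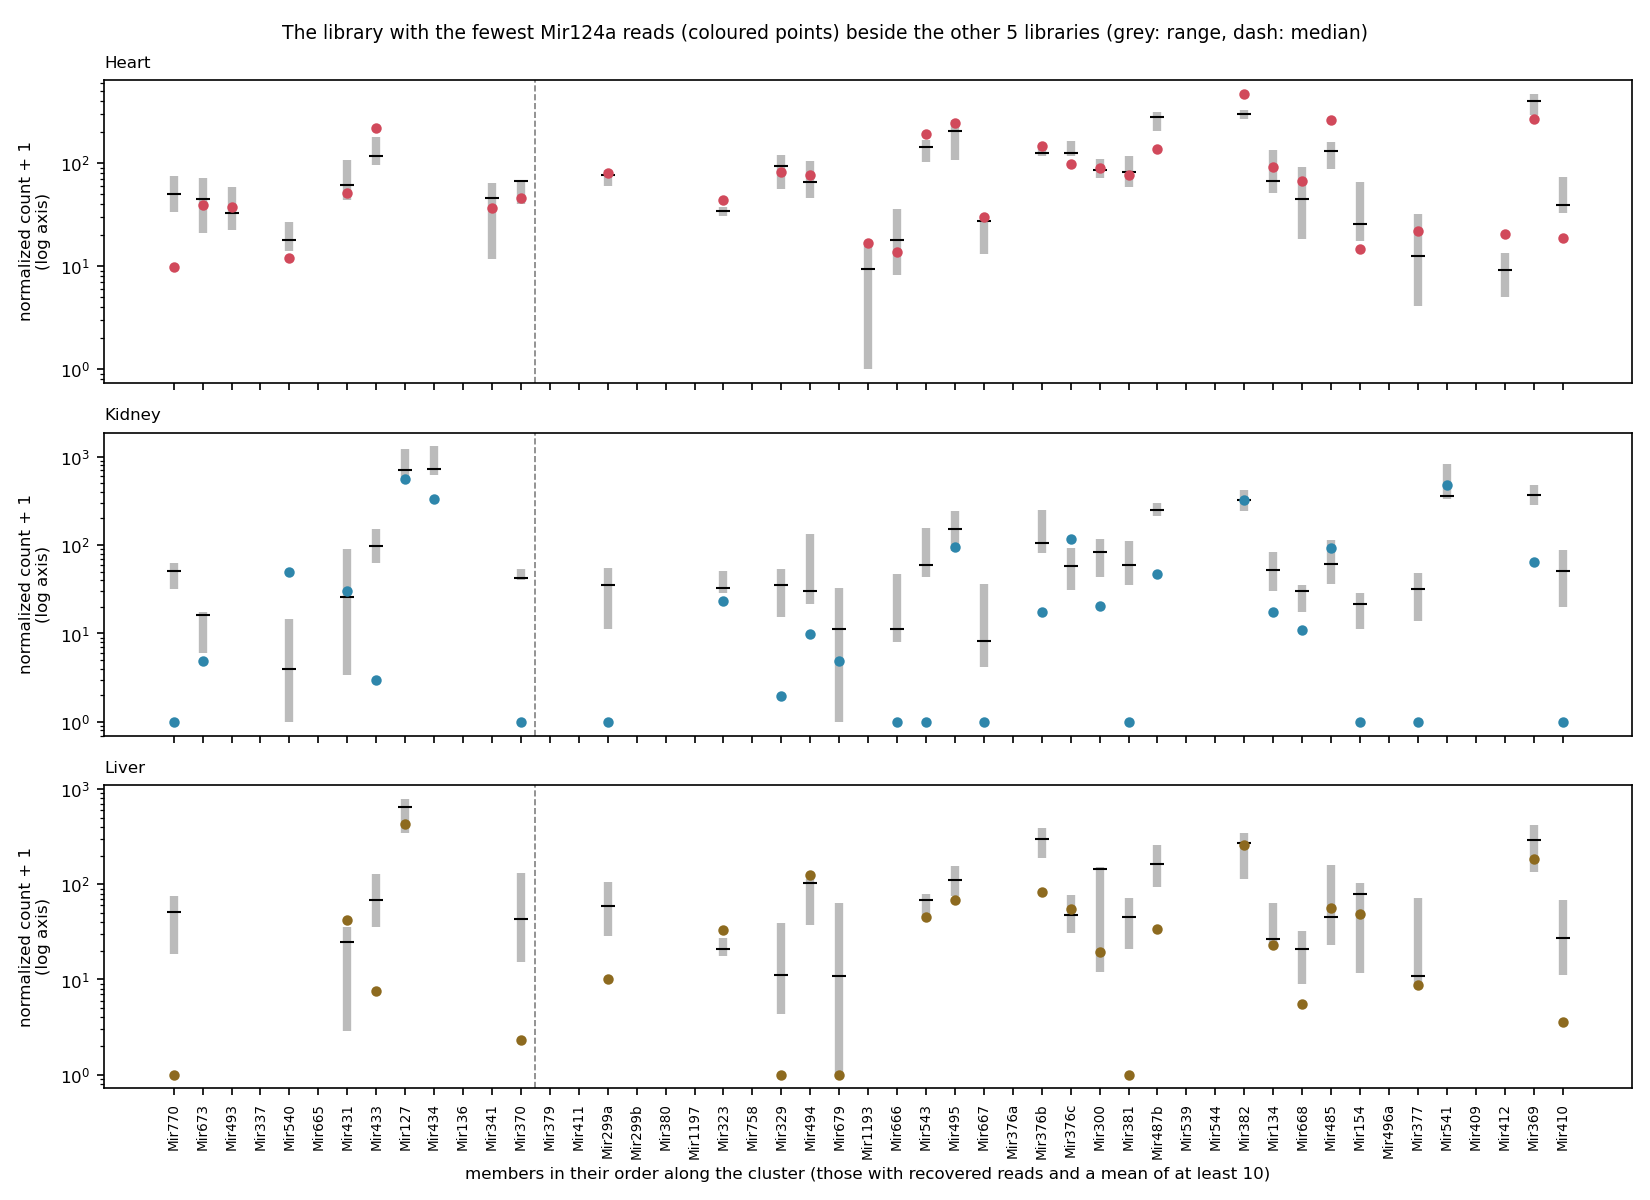
Recovered normalized counts plus 1 (log axis) of each member with recovered reads and a mean of at least 10 in heart, kidney and liver; coloured points are the library with the fewest Mir124a reads, grey bars the range of the other 5 libraries and dashes their median. In kidney 10 points lie at a count of 0 while Mir382, Mir541 and Mir485 lie within the grey bars; in heart 17 of the 31 points lie within them.

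The genotype contrast asks whether loss of Ftsj1 goes with other levels of these microRNAs. In no organ did a member reach an adjusted p below 0.05 by the authors' deposited tables (DESeq2's Wald test over all features, Benjamini-Hochberg adjustment). In brain 0 of 43 members passed, against 0% of 1030 features, in heart 0 of 31 with an adjusted p, against 1.13% of 355, and in kidney 0 of 40, against 0% of 1022. In liver 0 of 41 passed, against 0.229% of 872, and in spleen 0 of 40, against 0% of 1208. The smallest adjusted p of a member in the authors' deposited tables was 0.319 in heart and 0.622 in kidney, and 0.988 in spleen, 0.989 in brain and 0.991 in liver. At an unadjusted p below 0.05, 2 members stood in heart (5.33% of features), 1 in kidney (4.5% of features), 1 in spleen (3.48% of features), 0 in brain (2.23% of features) and 0 in liver (3.9% of features). The p-values measure the spread of 3 mice in each group. The tables do not state which genotype is the numerator, so signs are given as deposited, and a comparison of signs between organs assumes the same numerator in all 5.

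Standard errors set what these tables could resolve. Over members with a mean of at least 10 the median standard error of the deposited log2 fold change was 0.28 in brain, 0.44 in heart, 0.58 in spleen, 0.81 in liver and 0.93 in kidney. Signs of the deposited fold changes leaned one way in some organs, with no member past the threshold. In heart 26 of 36 members were negative, with a median of -0.29, beside 221 of 427 features and a median of -0.01. In liver 24 of 29 were positive, with a median of 0.37, beside 200 of 393 features and a median of 0.01. Brain had 26 of 41 positive with a median of 0.09, kidney 17 of 33 with 0.07 and spleen 20 of 31 with 0.09, and the medians of all features there lay between -0.03 and 0.00. Over the members with recovered reads, the median log2 ratio of the sides went from -0.24 to -0.17 in heart, from 0.00 to -0.30 in kidney and from 0.39 to 0.17 in liver without the library with the fewest Mir124a reads. Over recovered features with a mean of 10 to 100 it went from -0.05 to -0.10, from -0.13 to 0.07 and from 0.22 to 0.22 in the same order. Members share libraries, so their signs are not independent of each other.

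By side of the cluster, the medians of the deposited log2 fold changes over members with a mean of at least 10 were 0.29 (8 of 11 positive) on the Mir127 side and 0.07 (18 of 30 positive) on the Mir379/410 side in brain. In heart they were -0.33 (7 of 10 negative) and -0.26 (19 of 26 negative), and in liver 0.45 (5 of 6 positive) and 0.37 (19 of 23 positive). Kidney gave 0.27 (5 of 8 positive) and -0.00 (12 of 25 positive), and spleen 0.21 (7 of 8 positive) and 0.06 (13 of 23 positive). The difference between the sides was not tested.

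**Figure D4:**
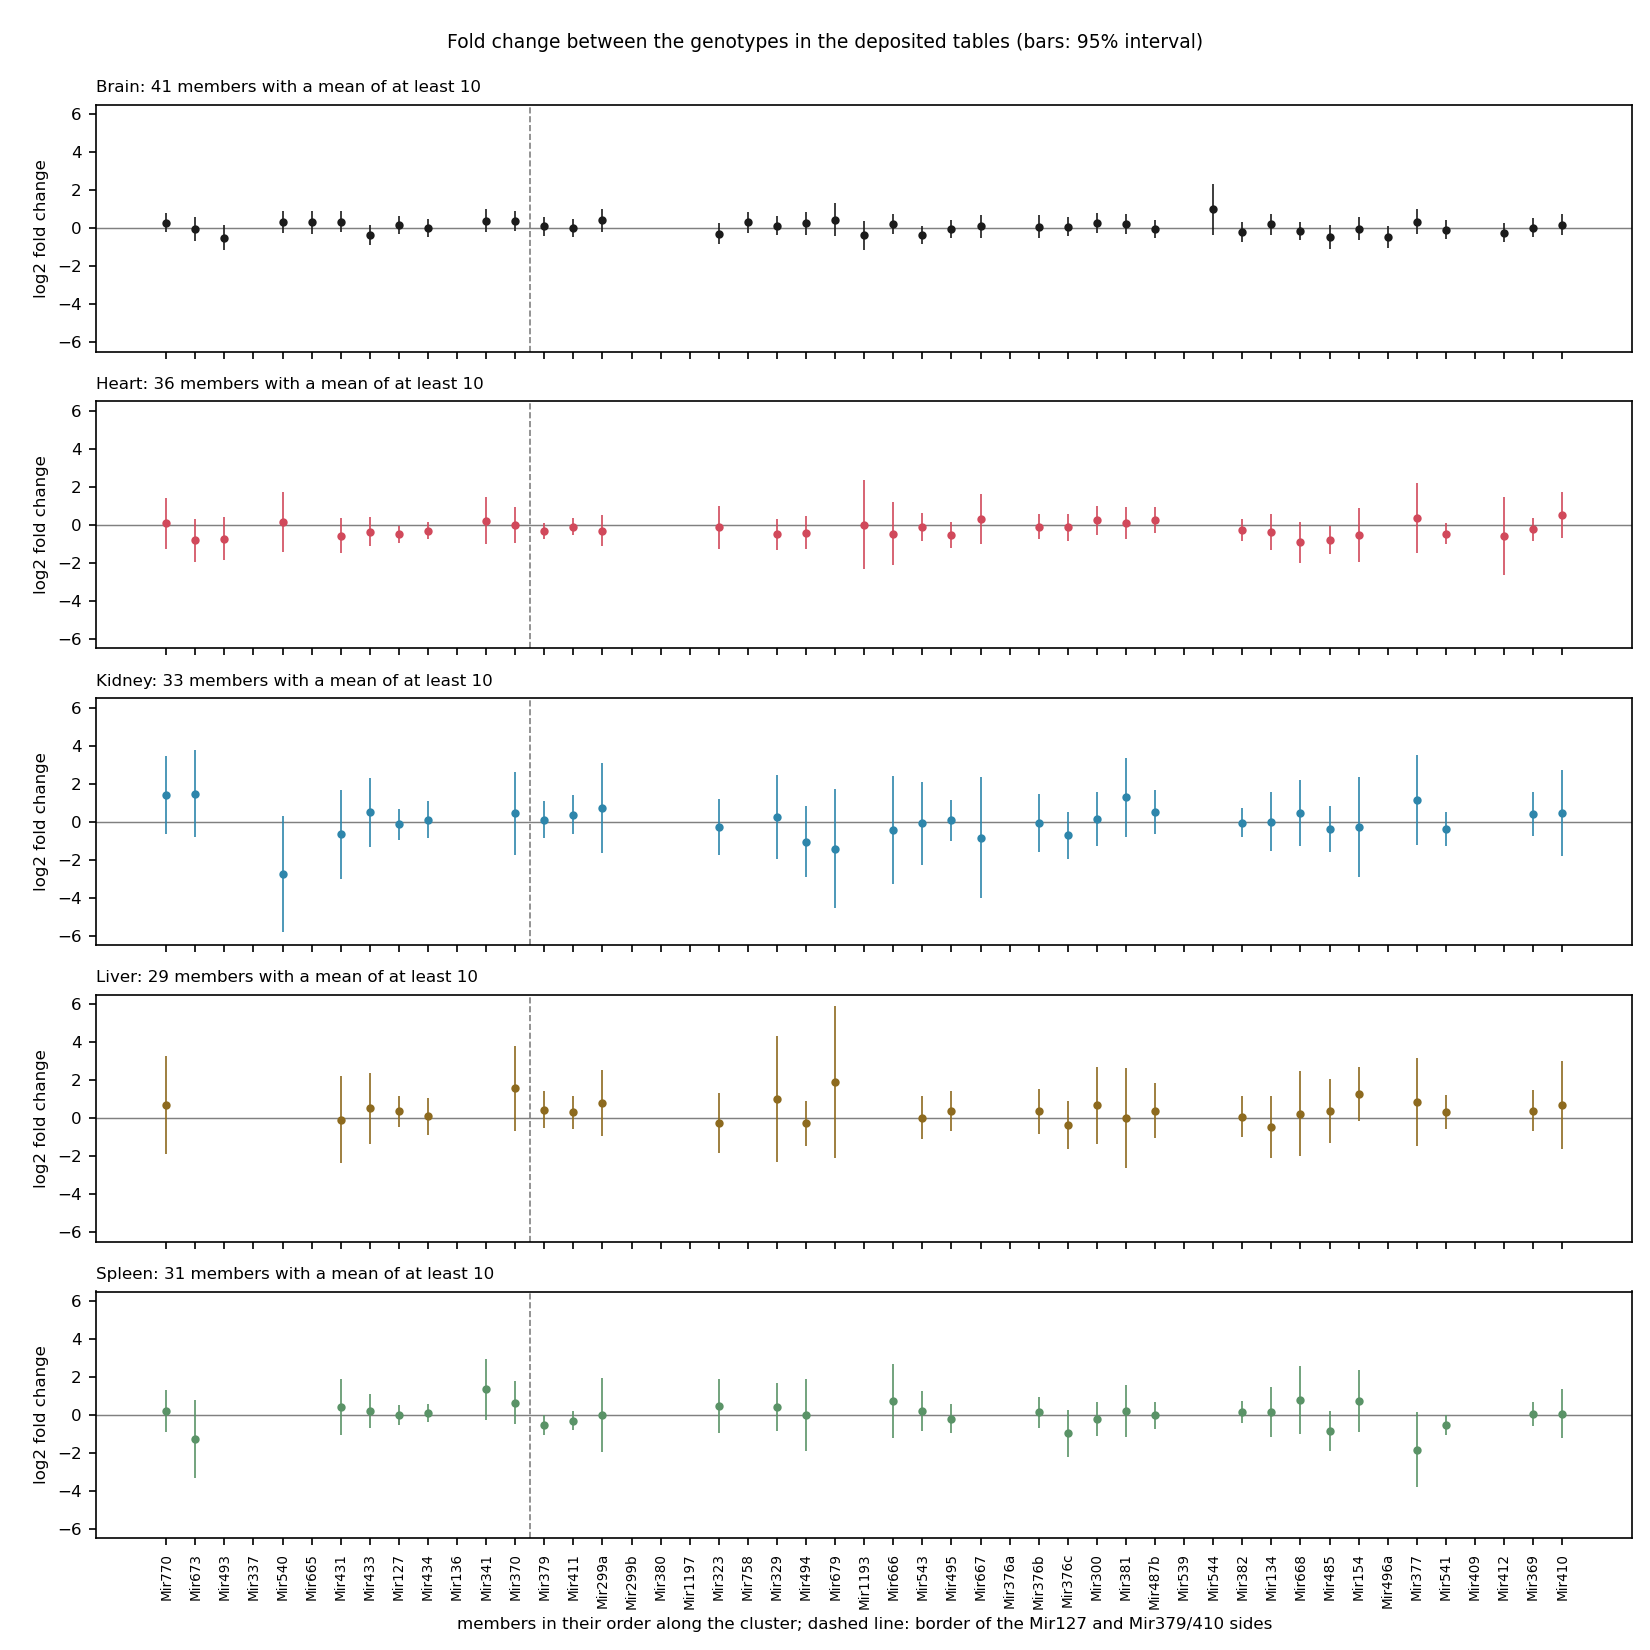
Deposited log2 fold change of each member with a mean of at least 10, by organ, in the order of the cluster; bars are 95% intervals from the deposited standard error and the dashed line separates the Mir127 side from the Mir379/410 side. Points in heart lie mostly below 0 and in liver mostly above 0, and the intervals are widest in kidney and liver.

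In brain the contrasts of the leading members were small. Mir434 had a log2 fold change of 0.03 (SE 0.24) in the authors' deposited table, Mir127 0.17 (SE 0.25) and Mir433 -0.35 (SE 0.27). On the other side the authors' deposited table gave -0.04 (SE 0.25) for Mir487b, 0.09 (SE 0.26) for Mir379 and -0.22 (SE 0.27) for Mir382. The intervals of all 6 include 0. Of 9 members with recovered reads and a mean of at least 10, 3 had sides that did not overlap, beside 12.4% of 201 features with a mean of 10 to 100. Only 1 of the 9, Mir544, lies in that range of means. Mir496a had 375, 474 and 453 on the positive side and 705, 636 and 479.7 on the negative side, in normalized counts, 434 ± 52.2 (SD, n = 3) against 607 ± 115 (SD, n = 3). The DESeq2 log2 fold change of this member in the authors' deposited table was -0.48 (SE 0.29, p = 0.0994, adjusted p = 0.989). Mir758 had 484, 422 and 466 on the positive side and 417, 352 and 339 on the negative side. Mir544 had 22.9, 36.4 and 68.5 on the positive side and 20.2, 21.4 and 21.6 on the negative side, and 1 library of the positive side carries most of its difference, which was 0.49 on the log2 scale without that library and 1.01 with it. The sides overlapped for the other members with many recovered reads. Mir665 had 836, 819.7 and 723 on the positive side and 810.2, 708 and 401 on the negative side, and Mir540 758, 621 and 916 on the positive side and 589, 506 and 763 on the negative side. Mir299a had 946, 582 and 551 on the positive side and 586, 566 and 416 on the negative side, where the highest value is far from the other 5, and Mir494 589, 493 and 425 on the positive side and 530.4, 397 and 327 on the negative side.

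In heart the members with an unadjusted p below 0.05 were Mir127 and Mir485, both lower on the positive side. Mir127, the antisense neighbour of Rtl1, had a log2 fold change of -0.49 (SE 0.23, p = 0.0308, adjusted p = 0.319) in the authors' deposited table and no values per library. Mir485, whose microRNA is known from presynaptic regulation in neurons, had 107, 86.7 and 131 on the positive side and 263, 136 and 159 on the negative side, in normalized counts, 108 ± 22.0 (SD, n = 3) against 186 ± 67.6 (SD, n = 3). Every negative library lay above every positive one, and the highest was negative library 1, the one with 2 Mir124a reads. In the authors' deposited table the DESeq2 log2 fold change was -0.80 (SE 0.38, p = 0.0351, adjusted p = 0.337). The log2 ratio of the recovered sides was -0.78 with all 6 libraries and -0.45 without negative library 1. Of 31 recovered members with a mean of at least 10, 3 had sides apart, all higher on the negative side, beside 13.2% of 174 features in either direction with a mean of 10 to 100, the range that holds 22 of the members, 2 of them apart. Mir299a had 76.1, 62.1 and 59.5 on the positive side and 79.7, 85.6 and 82.5 on the negative side, and Mir493 31.7, 24.6 and 21.5 on the positive side and 36.3, 36.7 and 57.6 on the negative side. The other 28 had overlapping sides. Mir382 had 302, 272 and 327 on the positive side and 470.1, 293 and 321 on the negative side, with negative library 1 the highest, and Mir369 296, 312 and 400.1 on the positive side and 268, 474 and 448 on the negative side, with the same library the lowest. Mir487b had 206, 287 and 312 on the positive side and 137, 284 and 257 on the negative side, and Mir495 167, 227 and 106 on the positive side and 248, 265 and 204 on the negative side. The authors' deposited table gave -0.32 (SE 0.21) for Mir379, -0.09 (SE 0.23) for Mir411, -0.46 (SE 0.28) for Mir541, -0.30 (SE 0.23) for Mir434 and -0.37 (SE 0.39) for Mir433. The median log2 ratio of the sides over the 31 members was -0.24 and lay between -0.25 and -0.16 with any 1 library left out, -0.17 without negative library 1. Without the highest library of each member it was -0.03, with 14 members positive and 17 negative. Over the 174 features with a mean of 10 to 100 the median moved too, from -0.05 with all libraries to 0.14 without the highest library of each feature.

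In kidney Mir496a alone had an unadjusted p below 0.05. Its mean was under 10, with 0.753, 0.785 and 0 on the positive side and 28.7, 22.6 and 5.09 on the negative side, in normalized counts, and a log2 fold change of -5.01 (SE 1.70, p = 0.00328, adjusted p = 0.622) in the authors' deposited table. Each negative library exceeded each positive one, and positive values of at most 0.785 are single reads. The sides were apart for Mir673 and Mir770 among the 31 recovered members with a mean of at least 10, beside 10.4% of 163 features with a mean of 10 to 100, the range that holds 23 of the members and both of these. Mir673 had 15.1, 16.5 and 15.9 on the positive side and 8.07, 3.92 and 5.09 on the negative side, of which 3.92 is negative library 2, and Mir770 50.4, 56.5 and 60.8 on the positive side and 30.5, 0 and 33.1 on the negative side. The 0 of Mir770 is in the library without Mir124a reads, and without that library the log2 ratio of Mir770 was 0.82 in place of 1.40. For the 5 members with the most recovered reads the sides overlapped. Mir434 had 1009, 691 and 719.9 on the positive side and 1300.3, 328 and 617 on the negative side, Mir127 778, 636 and 703 on the positive side and 1205, 563 and 582 on the negative side and Mir541 553, 331 and 353 on the positive side and 819, 472 and 339.9 on the negative side. For these 3 the highest value was negative library 1. Mir382 had 342, 318 and 285 on the positive side and 418, 323 and 243 on the negative side, and Mir369 364, 349 and 375 on the positive side and 480.3, 63.8 and 283 on the negative side, of which 63.8 is again negative library 2. The authors' deposited table gave 0.11 (SE 0.50) for Mir379, 0.35 (SE 0.53) for Mir411 and 0.48 (SE 0.93) for Mir433. Single libraries decided the direction over all members: the median log2 ratio of the sides was 0.00 with all 6, 0.84 without negative library 1 (26 of 31 positive) and -0.30 without negative library 2 (24 of 31 negative).

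In liver the leading members were all higher on the positive side by less than their standard errors. The authors' deposited table gave 0.45 (SE 0.49) for Mir379, 0.32 (SE 0.44) for Mir411 and 0.34 (SE 0.45) for Mir541. On the Mir127 side the authors' deposited table gave 0.36 (SE 0.42) for Mir127, 0.10 (SE 0.49) for Mir434 and 0.54 (SE 0.95) for Mir433. Of 25 recovered members with a mean of at least 10, Mir154 alone had sides apart, beside 13% of 154 features with a mean of 10 to 100, the range that holds 19 of the members and Mir154. Mir154 had 78.2, 98.2 and 102 on the positive side and 10.7, 47.5 and 56.5 on the negative side, in normalized counts, 92.8 ± 12.8 (SD, n = 3) against 38.2 ± 24.3 (SD, n = 3). The DESeq2 log2 fold change of this member in the authors' deposited table was 1.28 (SE 0.74, p = 0.081, adjusted p = 0.991). Its lowest value is negative library 1, not the library without Mir124a reads. The members with the most recovered reads overlapped between the sides. Mir127 had 737, 612 and 650.1 on the positive side and 346, 430.5 and 782 on the negative side, Mir376b 295, 378 and 186 on the positive side and 196, 82.1 and 389.8 on the negative side and Mir382 163, 329 and 268 on the positive side and 112, 255 and 348 on the negative side. Mir369 had 163, 419 and 290.1 on the positive side and 133, 184 and 342 on the negative side. Mir487b had 160.5, 231 and 116 on the positive side and 92.3, 33.2 and 258 on the negative side, and its lowest value is negative library 2. The median log2 ratio of the sides over these 25 members was 0.39. It was 0.17 without negative library 2, 0.11 without positive library 2 and 1.03 without negative library 3. Over recovered features with a mean of 10 to 100 it was 0.22 with all libraries, and 0.22, 0.11 and 0.32 without the same libraries in turn. The depth of the liver sides, which do not overlap in size factor, moves with the lean of the members, and its part was not tested.

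In spleen Mir379 had an unadjusted p below 0.05, with a log2 fold change of -0.55 (SE 0.27, p = 0.0433, adjusted p = 0.988) in the authors' deposited table and no values per library. Mir541, further along the same side, had 296, 373 and 357 on the positive side and 488, 411 and 591 on the negative side, in normalized counts, 342 ± 40.4 (SD, n = 3) against 497 ± 90.2 (SD, n = 3). The DESeq2 log2 fold change of this member in the authors' deposited table was -0.54 (SE 0.28, p = 0.0504, adjusted p = 0.988). Each negative library lay above each positive one. The same held for Mir485, with 39.4, 43.1 and 31.9 on the positive side and 51.1, 46.3 and 109 on the negative side, where 1 library is far above the rest. Its log2 ratio was -0.85 with all 6 libraries and -0.35 without negative library 3. These were the 2 of 28 recovered members with sides apart, beside 8.79% of 182 features with a mean of 10 to 100, the range that holds 23 of the members and, of the 2, Mir485. Mir127 had 576, 599 and 640.4 on the positive side and 685, 459.8 and 668 on the negative side, with equal means on both sides, 605 ± 32.4 (SD, n = 3) against 604 ± 125 (SD, n = 3). Mir382 had 258, 385 and 282 on the positive side and 267, 278 and 281 on the negative side, Mir369 214, 345 and 237 on the positive side and 269, 202 and 286 on the negative side and Mir487b 132, 289.5 and 186 on the positive side and 195, 231 and 186 on the negative side. For these 3 the highest value was positive library 2, and without that library the median log2 ratio over the 28 members was -0.09 in place of 0.15. The authors' deposited table gave -0.31 (SE 0.25) for Mir411, 0.09 (SE 0.25) for Mir434 and 0.21 (SE 0.46) for Mir433.

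**Figure D5:**
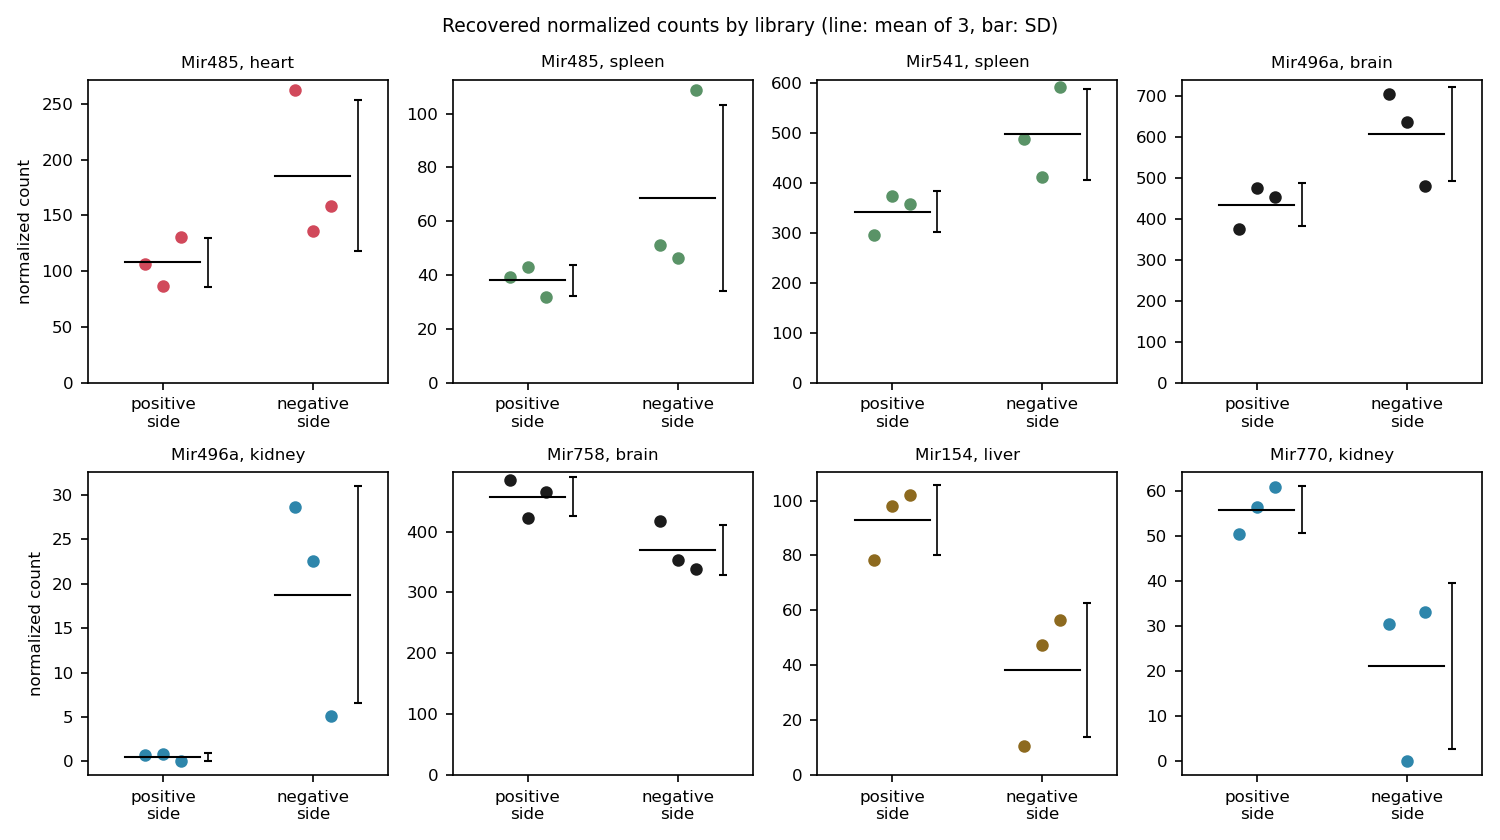
Recovered normalized counts of single libraries for 8 member and organ pairs whose sides did not overlap; points are libraries, lines the mean of 3 and bars the SD, and each axis starts at or just below 0. Mir485 in heart and spleen and Mir496a in kidney show 1 or 2 negative libraries far above the rest, and Mir770 in kidney has 1 library at 0.

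Across organs, Mir485 was negative in 4 of 5: the authors' deposited tables gave -0.47 (SE 0.33) in brain, -0.80 (SE 0.38) in heart, -0.38 (SE 0.62) in kidney and -0.84 (SE 0.54) in spleen, and 0.40 (SE 0.86) in liver. This is not particular to Mir485, which was named after its values were seen. Mir412 was negative in all 5 organs, but its means in kidney, liver and spleen were only 3.54, 5.22 and 5.44 normalized counts. Mir541 and Mir493 were negative in the same 4 as Mir485. Mir323 and Mir376c, among others, were negative in a different set of 4. The organs come from the same mice, so values of a member are not independent between organs. No member had sides apart in opposite directions in 2 organs. The difference of the fold changes was tested for each of the 10 organ pairs, over all features with a standard error in both. No member passed an adjusted p of 0.05 in any pair, and 0 or 1 member per pair had an unadjusted p below 0.05. Among all features 0% passed in 9 pairs and 0.134% of 747 in the pair of kidney and liver. A change in one organ and not in another is therefore not shown for any member, and the width of the intervals in kidney and liver means that equal fold changes are not shown either.

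For members that share a seed the contrasts overlapped within their errors. In brain the authors' deposited table gave 0.37 (SE 0.27) for Mir370 and -0.38 (SE 0.39) for Mir1193, 0.18 (SE 0.28) for Mir410 and 0.26 (SE 0.31) for Mir494, and 0.07 (SE 0.31) for Mir376b and 0.07 (SE 0.26) for Mir376c. In spleen the authors' deposited table gave 0.15 (SE 0.42) for Mir376b and -0.96 (SE 0.64) for Mir376c. Their intervals overlap.

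The region holds other precursors that are no members. Of 14 listed, 12 are in the tables, and 7 were above 0 in heart, 6 in brain, 4 in kidney, 3 in spleen and 2 in liver. In brain, kidney, liver and spleen 0 passed the authors' adjusted p of 0.05, which the 7 in heart do not have. An unadjusted p below 0.05 was reached by 0 in each organ, beside 2.23% to 5.33% of all features. Their means summed to 833 normalized counts in brain, most of it Mir3071, which covers Mir136 on the opposite strand, and to 3.38 to 6.44 in the other organs.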

How the data were processed

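Small RNA libraries of 30 samples were compared within 5 organs, 3 Ftsj1_DF mice against 3 WT mice in each. Per the submitters' processing notes, featureCounts (Subread 2.0.3) counted reads on GRCm39 and the authors compared genotypes with DESeq2. The aligner, annotation, strand setting and DESeq2 model were not given in the sources used here. The authors deposited 5 tables of 2195 rows without values per sample. In them the deposited mean is a signal: counts divided by size factors, averaged over the 6 libraries of an organ. Fold changes and standard errors were deposited in log2 units, the Wald statistic was deposited as a score, and each p-value was deposited raw and adjusted, per the file headers. The row without a name (at most 1.82e-05% of a total) was left out, and 0 columns with values per sample went unused.

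Members and lists were chosen with earlier results of these data known. Values are given in full for members with an unadjusted p below 0.05, the 3 highest of each side in an organ, the 5 with the most recovered reads in an organ and members that share a seed. Members named for sides that do not overlap, or for their level in the libraries with few Mir124a reads, were chosen after their values were seen.

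A feature was called at the authors' adjusted p of 0.05. Levels are shares of the organ total, with 95% intervals from 0.5 of the deposited standard error. Fold changes of 2 organs were compared by z over the combined standard error, with Benjamini-Hochberg adjustment in each of 10 pairs, which leaves out that the organs share mice. Whole reads per library were recovered for members up to a mean of 800, as counts and size factors that give the deposited mean, fold change and standard error in a negative binomial fit of genotype alone. The recovery was checked on data simulated with the same fit, at means below those of the members with the most recovered reads. The difference test was also checked on simulated data. The planned edgeR test was not run, since the most abundant features have no recovered counts. Python 3.11.15, numpy 2.4.6, pandas 2.3.3 and scipy 1.17.1 were used.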

Additional observations from a re-analysis of the deposited data

How the results depend on the processing

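No paired analysis was possible because the genotypes share no mouse and the tables tie no library to a mouse. The count of members past an adjusted p of 0.05 stayed at 0 in every organ under each of 4 other ways of adjusting the p-values. The median log2 fold change of the members in spleen, 0.09, was -0.01 over members with a mean of at least 100 and -0.08 as an inverse-variance weighted mean, and that in kidney, 0.07, was -0.03 over every member with a statistic. Without the 3 most abundant features the cluster share was 0.170% in heart, 0.102% in spleen, 0.0800% in liver and 0.0534% in kidney. The Mir127-side share was 18.4% in heart without Mir127, and by medians 47.3% in spleen, 43.9% in kidney and 35.6% in liver. Brain over heart was 81.1-fold with the deposited means and 28.4-fold with the median-ratio scaling. Leaving out 1 library at a time, an alternative chosen after seeing the data, the median log2 ratio of the sides ranged from 0.13 to 0.40 in brain, -0.25 to -0.16 in heart, -0.09 to 0.26 in spleen, 0.11 to 1.03 in liver and -0.30 to 0.84 in kidney. Its sign turned in spleen without positive library 2 (-0.09). In kidney, where it was 0.00 over all libraries, it was 0.84 without negative library 1 and -0.30 without negative library 2, and in liver 1.03 without negative library 3 and 0.11 without positive library 2. Without the highest library of each member, it was 0.13 in brain, -0.03 in heart, -0.05 in spleen, 0.29 in liver and 0.77 in kidney. Features with a mean of 10 to 100, treated in the same way, gave -0.08, 0.14, 0.01, -0.02 and 0.24 in the same order. Of 124 log2 ratios of single members, 90 kept their sign without their highest library and 30 moved by over 1 standard error. Members at 5 or more times the brain ratio of Mir124a numbered 19 in heart, 12 in kidney and 8 in spleen, against 0, 2 and 0 with Mir128 and, in kidney, 0 with Mir9. In kidney, liver and spleen the cluster took 0.0327% to 0.0521% of the organ total, so many members rest on few reads. Values per library are lacking for the most abundant members, and the causes of these shifts were not tested.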
